A study of Mus musculus with 12 samples.

Results

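Mast cells were followed in whole mouse skin through 9 genes that mark them: Cma1, Mcpt4, Tpsb2, Tpsab1, Cpa3, Fcer1a, Ms4a2, Hdc and Kit. The genes were taken from the count table by symbol. All 9 were among the 55453 genes listed, and all 9 were among the 18311 genes with enough reads to be tested. In bleomycin-treated WT skin, Fcer1a, Tpsab1, Hdc and Cma1 rose and Kit fell against PBS-treated WT skin. In that comparison 34% of all genes passed edgeR's test. In skin of Thy-1–KO mice, none of the 9 passed edgeR's test between bleomycin and PBS, where 0.306% of all genes passed. DESeq2 called Fcer1a and Tpsab1 there, and 5.95% of all genes. None of the 9 passed either test between the genotypes. There, edgeR called 0.0655% of all genes under PBS and 0.0928% under bleomycin, and DESeq2 called 3.69% and 2.99%.

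Mast cells are resident immune cells of connective tissue, and in skin they lie around vessels, nerves and hair follicles. They store proteases bound to serglycin in their granules, carry the high-affinity IgE receptor FcεRI on their surface and make histamine. They depend on the receptor tyrosine kinase KIT and its ligand, stem cell factor. Cma1 and Mcpt4 encode the chymases mMCP-5 and mMCP-4, Tpsb2 and Tpsab1 encode the tryptases mMCP-6 and mMCP-7, and Cpa3 encodes mast cell carboxypeptidase. Fcer1a and Ms4a2 encode the α and β chains of FcεRI, and Hdc encodes histidine decarboxylase, which makes histamine. Basophils also carry Fcer1a and Ms4a2, and Kit is also used by melanocytes.

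The 12 libraries were bulk RNA-Seq of skin from 12 mice in 4 groups of 3, collected at day 21. WT PBS and WT BLM mice were wildtype, and KO PBS and KO BLM mice were Thy1-knockout. PBS or bleomycin (BLM), a drug that causes skin fibrosis, was given by daily injection under the back skin. In the study's methods these injections end before day 21. The strain in all groups was C57/BL6, and the knockout is in every cell of the animal. Female sex and an age range in weeks are given in the study's methods for the Thy-1–KO mice, and neither sex nor age is stated there for the WT mice. The study's methods describe its control mice as littermates. In bulk skin, fewer cells of a type and less RNA per cell cannot be told apart, and the share of mast cells in the samples was not measured.

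The libraries held between 26473700 and 38890450 counts (median 31494965). Thy1, the targeted gene, was counted in every mouse, with 45.6–96.9 CPM (counts scaled to a common library size) in KO PBS against 104–150 in WT PBS and 84.7–128 in KO BLM against 231–416 in WT BLM. Counts were deposited per gene, and the origin of these reads within Thy1 is not visible in them. A list of hair growth genes set 2 KO mice apart from the others of their groups. The mean log2 CPM of the list was 9.28–10.1 in WT PBS and −0.262 to 3.34 in WT BLM. It was 9.97 in KO PBS mouse 136 against −0.629 and 2.39 in mice 137 and 139, and 8.88 in KO BLM mouse 141 against 4.74 and 5.91 in mice 143 and 144. Results that rest on mice 136 and 141 are given with and without them.

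The chymase genes lie 114953 bases apart on mouse chromosome 14 of build GRCm38, Cma1 at chr14:55941451-55944675 and Mcpt4 at chr14:56059629-56062313, both on the minus strand. The tryptase genes lie 20742 bases apart on chromosome 17, Tpsab1 at chr17:25343245-25345562 on the minus strand and Tpsb2 at chr17:25366305-25369098 on the plus strand. The others are single loci, Cpa3 at chr3:20215620-20242181, Fcer1a at chr1:173221284-173227214, Ms4a2 at chr19:11615523-11623719, Hdc at chr2:126593667-126619299 and Kit at chr5:75574916-75656722. No other gene overlapped an exon of the 9. Of the 50-base words in the members' transcripts, 5.38% for Cma1 and 5.48% for Mcpt4 also occurred in transcripts of other genes, and Tpsb2 and Tpsab1 had none, so reads could be told apart over nearly all of each gene.

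Mast cell genes are known targets of GATA factors, chiefly GATA2, so their promoters were searched for the GATA letters AGATAA or AGATAG or TGATAA or TGATAG on either strand. RefSeq promoters (GRCm38.p6, 250 bases before to 50 bases after the start) were matched for 7 of the 9 genes, without Tpsb2 and Tpsab1. The letters were present in 6 of these 7, and in 29.8% of the 32851 promoters of that length in the table. Ms4a2 held 3 matches, and Cma1, Mcpt4, Cpa3, Fcer1a and Hdc held 1 each, while the Kit promoters held none. The E-box letters CACGTG or CACATG or CATGTG were found in 1 member, Fcer1a, and in 20.4% of all promoters, and neither set of letters contains the other. A match is a description of the sequence and does not show binding. Sequences are shown for a chymase, the carboxypeptidase, both FcεRI chains and, as the gene with no match, Kit. They are written 5′ to 3′ on the gene's strand, with the GATA matches in capitals.
Mcpt4, chr14:56062261-56062560, minus strand, match 103 bases before the start: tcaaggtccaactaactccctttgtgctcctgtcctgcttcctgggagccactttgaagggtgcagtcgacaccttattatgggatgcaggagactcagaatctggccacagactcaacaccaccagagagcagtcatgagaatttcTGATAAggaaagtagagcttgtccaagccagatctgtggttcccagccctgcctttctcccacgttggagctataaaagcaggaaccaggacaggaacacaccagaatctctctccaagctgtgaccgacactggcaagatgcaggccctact
Cpa3, chr3:20242132-20242431, minus strand, match 46 bases before the start: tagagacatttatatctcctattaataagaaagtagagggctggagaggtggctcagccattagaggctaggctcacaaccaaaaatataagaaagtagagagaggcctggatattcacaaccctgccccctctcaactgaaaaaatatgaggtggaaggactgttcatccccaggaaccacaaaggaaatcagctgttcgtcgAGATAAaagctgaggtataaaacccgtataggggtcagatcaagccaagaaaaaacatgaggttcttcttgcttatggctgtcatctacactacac
Fcer1a, chr1:173227180-173227479, minus strand, match 92 bases before the start: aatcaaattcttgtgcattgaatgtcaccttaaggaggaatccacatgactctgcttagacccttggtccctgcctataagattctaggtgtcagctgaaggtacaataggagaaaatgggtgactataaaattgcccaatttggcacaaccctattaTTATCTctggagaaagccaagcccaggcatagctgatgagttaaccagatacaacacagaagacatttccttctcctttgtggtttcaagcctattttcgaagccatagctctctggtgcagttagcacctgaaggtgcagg
Ms4a2, chr19:11623670-11623969, minus strand, matches 224, 37 and 11 bases before the start: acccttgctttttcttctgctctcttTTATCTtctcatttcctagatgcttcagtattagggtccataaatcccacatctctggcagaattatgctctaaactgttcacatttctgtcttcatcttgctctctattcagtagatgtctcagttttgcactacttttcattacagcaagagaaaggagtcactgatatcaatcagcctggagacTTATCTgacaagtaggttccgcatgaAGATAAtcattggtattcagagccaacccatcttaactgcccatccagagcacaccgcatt
Kit, chr5:75574737-75575036, plus strand, no match: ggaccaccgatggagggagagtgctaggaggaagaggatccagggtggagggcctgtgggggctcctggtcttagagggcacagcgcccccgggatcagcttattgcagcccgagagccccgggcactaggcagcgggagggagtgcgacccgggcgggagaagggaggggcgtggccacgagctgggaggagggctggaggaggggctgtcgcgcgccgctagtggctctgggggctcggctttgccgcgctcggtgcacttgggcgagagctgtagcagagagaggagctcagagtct

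The 9 genes differed widely in level. Per kilobase of exon, the median over the 12 mice was 59.0 CPM per kb for Mcpt4, 30.6 for Cma1, 26.2 for Cpa3 and 16.1 for Tpsb2. Kit followed with 3.61 CPM per kb, then Fcer1a with 1.30, Ms4a2 with 0.922 and Hdc with 0.638. Tpsab1 was lowest, at 0.0904 CPM per kb. The ranges over mice of the same group overlapped between some neighbours in this order: in WT BLM, for example, Cma1 ranged from 14.4 to 42.6 and Cpa3 from 9.58 to 36.3 CPM per kb. In WT PBS, Kit (7.13 ± 0.647, mean ± SD, n = 3) stood beside Tpsb2 (7.13 ± 1.04). Tpsab1 rested on 1–67 counts per library, the fewest of the 9 genes. The levels that follow are CPM without division by length.

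**Figure D1:**
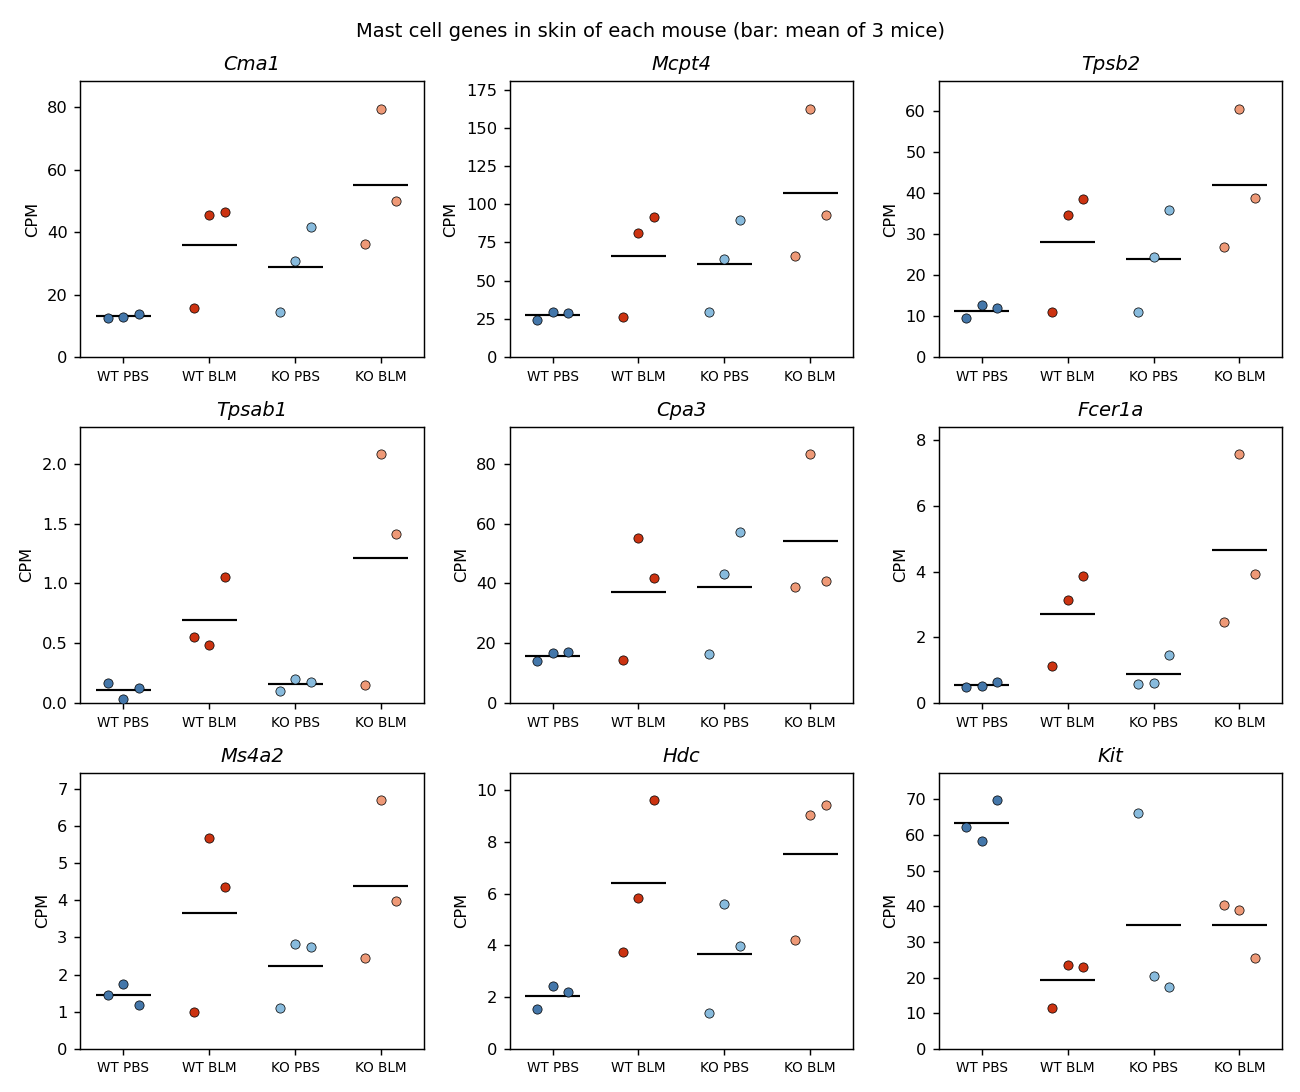
Level of each of the 9 mast cell genes (CPM, linear axis from 0) in each of 12 mice, by group, with 1 point per mouse and a bar at the mean of 3 mice. The 3 WT PBS mice lie close together for the proteases, and for the proteases other than Tpsab1 WT BLM mouse 145 and KO PBS mouse 136 lie near them, while the other 4 mice of those groups are higher.

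In WT skin, 3 genes of granule and histamine production and the α chain of FcεRI rose after bleomycin, and Kit fell. Of the 9 genes, 5 passed edgeR's quasi-likelihood test at an adjusted p of 0.05, 4 higher and 1 lower, where 34% of all genes tested passed it in this comparison, 19.8% higher and 14.1% lower. The median log2 fold change of the 9 genes was 1.34, and that of all genes was 0.018. The largest of the 4 rises were in Tpsab1 and Fcer1a. The WT PBS and WT BLM mice did not overlap in 5 of the 9 genes, Cma1, Tpsab1, Fcer1a, Hdc and Kit, and in 57% of all genes.

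Among the chymases, Cma1 was at 12.7, 12.8 and 13.9 CPM in WT PBS and at 15.7, 45.4 and 46.4 CPM in WT BLM. WT BLM mouse 145 lay just above the PBS mice, and the other 2 lay far above them. Cma1 rose 2.73-fold (log2 fold change 1.45, SE 0.47, adjusted p = 0.0380). Mcpt4 was at 24.4, 29.3 and 28.9 CPM in WT PBS and at 26.2, 81.1 and 91.7 CPM in WT BLM, so mouse 145 fell within the PBS range. Its log2 fold change of 1.27 (SE 0.51) did not pass the test (adjusted p = 0.0739).

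Of the tryptases, Tpsb2 was at 9.50, 12.6 and 11.97 CPM in WT PBS and at 11.04, 34.8 and 38.7 CPM in WT BLM (log2 fold change 1.31, SE 0.51, adjusted p = 0.0689). It followed the chymases, with mouse 145 again inside the PBS range. Tpsab1, which was barely detected in PBS skin, had 5, 1 and 5 counts in WT PBS and 14, 15 and 32 counts in WT BLM. All 3 bleomycin-treated mice were above the PBS mice, mouse 145 included, and Tpsab1 rose 6.14-fold (log2 fold change 2.62, SE 0.86, adjusted p = 0.0401). The carboxypeptidase Cpa3 was at 14.0, 16.6 and 17.1 CPM in WT PBS and at 14.5, 55.1 and 41.9 CPM in WT BLM, with groups that overlapped (log2 fold change 1.23, SE 0.53, adjusted p = 0.0937). Summed over the 5 proteases, the level was 68.0 ± 6.34 CPM in WT PBS and 168 ± 86.8 CPM in WT BLM (mean ± SD, n = 3), and the WT BLM mice spread from 68.0 to 219.7 CPM.

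The FcεRI α chain gene Fcer1a was at 0.473, 0.526 and 0.637 CPM in WT PBS and at 1.14, 3.13 and 3.87 CPM in WT BLM. Every bleomycin-treated mouse was above every PBS mouse, and Fcer1a rose 4.94-fold (log2 fold change 2.30, SE 0.58, adjusted p = 0.0166), with the smallest adjusted p of the 9 genes. The β chain gene Ms4a2 was at 1.45, 1.74 and 1.17 CPM in WT PBS and at 0.979, 5.67 and 4.36 CPM in WT BLM. Here mouse 145 was the lowest of all 12 mice, and the change did not pass the test (log2 fold change 1.34, SE 0.61, adjusted p = 0.106). Hdc was at 1.52, 2.43 and 2.19 CPM in WT PBS and at 3.76, 5.84 and 9.61 CPM in WT BLM, without overlap, and rose 3.12-fold (log2 fold change 1.64, SE 0.52, adjusted p = 0.0365).

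Kit moved the other way from the other 8 genes. It was at 62.3, 58.4 and 69.8 CPM in WT PBS and at 11.5, 23.6 and 23.0 CPM in WT BLM, where all 3 mice were far below the PBS mice. Kit was 3.27-fold lower (log2 fold change −1.71, SE 0.48, adjusted p = 0.0236). Markers of melanocytes, which also use Kit, moved with it. Of 9 melanocyte genes, 8 fell in this comparison, among them Ednrb, Slc45a2, Dct and Tyrp1, and their summed level was 1369–1799 CPM in WT PBS and 77.2–145 CPM in WT BLM. Of 30 hair growth genes tested, 18 fell and none rose. Of all genes, 14.1% fell and 19.8% rose in this comparison. The part of melanocytes and of the hair cycle in the level of Kit was not tested.

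These calls rested on few mice, and the share of all genes called moved as well. With mouse 147 left out of WT BLM, 0 of the 9 genes passed (17.6% of all genes), as with mouse 159 (14%) or 160 (13.9%) left out of WT PBS. Without WT PBS mouse 161, 1 passed (Fcer1a, 18.1% of all genes), and without WT BLM mouse 146, 2 passed (Fcer1a and Kit, 19.8%). Without WT BLM mouse 145, 7 passed (21.5% of all genes). The 4 groups share the estimate of spread, and 3 passed without KO BLM mouse 144 (29.7% of all genes) and 8 without KO PBS mouse 136 (45.7%). DESeq2 and a fit to the compared groups alone each called 7, adding Mcpt4 (adjusted p = 0.0435 and 0.0448) and Tpsb2 (0.0380 and 0.0442).

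**Figure D2:**
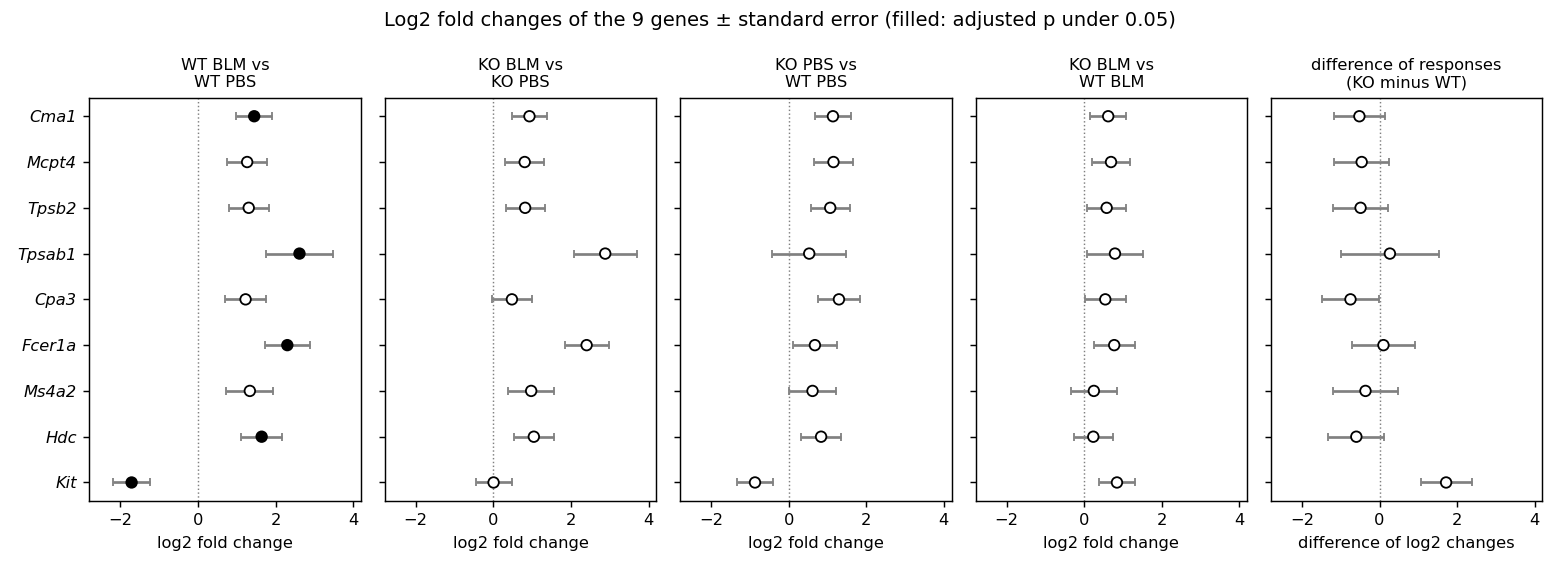
Log2 fold changes of the 9 genes (x axis) in 4 comparisons, and the difference of the bleomycin responses between genotypes, with standard errors as bars and filled points for an adjusted p under 0.05. Filled points occur only for WT BLM against WT PBS (5 of 9 genes), and Kit lies on the opposite side of 0 from the other 8 genes there.

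In Thy-1–KO skin the mast cell genes were higher on average after bleomycin, but with wide spread. All 9 log2 fold changes were above 0, with a median of 0.93, and edgeR called none of the 9, where it called 0.306% of all genes. Without adjustment, 2 of the 9 had p under 0.05 in edgeR, where 3665 of the 18311 genes tested did. DESeq2 called the same 2, Tpsab1 and Fcer1a, and 5.95% of all genes. KO PBS and KO BLM mice did not overlap in 1 gene, Fcer1a, against 19.3% of all genes.

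Fcer1a was at 0.565, 0.600 and 1.46 CPM in KO PBS and at 2.48, 7.57 and 3.92 CPM in KO BLM. The lowest bleomycin-treated mouse was above the highest PBS mouse, with a log2 fold change of 2.40 (SE 0.57, adjusted p = 0.0957 in edgeR and 0.00186 in DESeq2). Without KO PBS mouse 136 or without KO BLM mouse 141, edgeR called Fcer1a, where it called 14% and 6.19% of all genes. Tpsab1 had 3, 7 and 6 counts in KO PBS and 5, 67 and 40 counts in KO BLM, where mouse 141 stayed with the PBS mice (log2 fold change 2.88, SE 0.81, adjusted p = 0.131 in edgeR and 0.0194 in DESeq2). It was called by edgeR without mouse 141.

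The other proteases differed less. Cma1 was at 14.4, 30.6 and 41.7 CPM in KO PBS and at 36.1, 79.5 and 49.8 CPM in KO BLM (log2 fold change 0.93, SE 0.46, adjusted p = 0.283). Mcpt4 was at 29.6, 64.5 and 89.6 CPM in KO PBS and at 66.3, 162.5 and 93.0 CPM in KO BLM (log2 fold change 0.81, SE 0.50, adjusted p = 0.377). In both chymases the lowest of the 6 mice was KO PBS mouse 136 and the highest was KO BLM mouse 143. Tpsb2 was at 11.1, 24.5 and 36.0 CPM in KO PBS and at 26.9, 60.6 and 38.8 CPM in KO BLM (log2 fold change 0.82, SE 0.50). Cpa3, at 16.3, 43.2 and 57.3 CPM in KO PBS and 38.8, 83.2 and 40.8 CPM in KO BLM, had the smallest fold change of the proteases, 0.48 on the log2 scale (SE 0.52). Summed over the 5 proteases, KO PBS skin held 153 ± 77.2 CPM and KO BLM skin 260 ± 114 CPM, with ranges of 71.4–224.8 and 168.3–387.8 CPM that overlapped.

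Ms4a2 was at 1.097, 2.83 and 2.74 CPM in KO PBS and at 2.45, 6.70 and 3.99 CPM in KO BLM (log2 fold change 0.98, SE 0.60). Hdc was at 1.40, 5.60 and 3.96 CPM in KO PBS and at 4.19, 9.02 and 9.44 CPM in KO BLM (log2 fold change 1.04, SE 0.51). For both, the groups overlapped. Kit was at 66.3, 20.5 and 17.4 CPM in KO PBS and at 40.2, 38.8 and 25.6 CPM in KO BLM, which gave a log2 fold change of 0.0060 (SE 0.46). The KO PBS values of Kit fell apart into mouse 136, which lay within the WT PBS range, and mice 137 and 139, which lay within the WT BLM range.

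Between PBS-treated mice of the 2 genotypes, 8 of 9 mast cell genes were above 0 in log2 fold change (KO over WT) and Kit was below. None of the 9 was called by edgeR or by DESeq2, where edgeR called 0.0655% of all genes and DESeq2 3.69%. Without adjustment, 3 had p under 0.05 in edgeR, Cma1, Cpa3 and Mcpt4, where 3727 of the 18311 genes tested did. The log2 fold changes were 1.14 (SE 0.47) for Cma1, 1.15 (SE 0.51) for Mcpt4, 1.07 (SE 0.51) for Tpsb2 and 1.29 (SE 0.53) for Cpa3, and −0.87 (SE 0.47) for Kit. The adjusted p ran from 0.228 to 0.743 over the 9 genes. Groups did not overlap for Cma1 and Mcpt4, against 18.9% of all genes. The single KO PBS mouse that resembled WT PBS was again mouse 136, with 71.4 CPM over the 5 proteases against 60.7–72.0 in WT PBS.

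Leaving out mouse 136 turned 5 calls. Cma1 (log2 fold change 1.46, adjusted p = 0.0251), Mcpt4 (1.48, adjusted p = 0.0357), Tpsb2 (1.41, adjusted p = 0.0414) and Cpa3 (1.66, adjusted p = 0.0233) were then higher in KO PBS than in WT PBS. Kit was then lower (−1.74, adjusted p = 0.00311). Of all genes tested, 36.7% passed without mouse 136, so the 5 calls came with a change across the whole table. These values rest on 2 KO PBS mice, 137 and 139, both with low hair growth genes, so genotype and hair growth cannot be told apart in them.

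Between bleomycin-treated mice of the 2 genotypes, the mast cell genes did not separate. All 9 log2 fold changes (KO over WT) were above 0, from 0.24 to 0.85 with a median of 0.62, none of the 9 was called by edgeR or DESeq2, and none had an unadjusted p under 0.05. edgeR called 0.0928% of all genes in this comparison, and DESeq2 called 2.99%. Without adjustment, 3043 of the 18311 genes tested had p under 0.05 in edgeR. The adjusted p ran from 0.363 for Kit to 0.841 for Ms4a2. Only for Kit did the 3 KO BLM mice (25.6–40.2 CPM) not overlap the 3 WT BLM mice (11.5–23.6 CPM), against 27.5% of all genes. Melanocyte genes stood on the same side, at 399–820 CPM summed in KO BLM and 77.2–145 CPM in WT BLM.

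The response to bleomycin was compared between genotypes as the difference of log2 fold changes, KO minus WT. None of the 9 passed the test by edgeR, where 0% of all genes passed, or by DESeq2, where 17.8% passed. In edgeR, 5687 of the 18311 genes tested had an unadjusted p under 0.05, and so did 1 of the 9. This was Kit, which was lower after bleomycin in WT and level in KO skin (difference 1.72, SE 0.66, unadjusted p = 0.0255, adjusted p = 0.119). Without mouse 136 the difference for Kit was 2.59 (adjusted p = 0.00124), and 39.9% of all genes then passed. For the 2 genes that responded most in WT skin the differences were near 0, 0.10 (SE 0.81) for Fcer1a and 0.27 (SE 1.27) for Tpsab1. For Cma1 it was −0.52 (SE 0.65), for Cpa3 −0.75 (SE 0.74) and for Hdc −0.60 (SE 0.72). With standard errors of this size the data could not show whether the mast cell response differed between WT and Thy-1–KO mice.

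Ratios between the genes within a mouse do not depend on how many mast cells a skin piece held if all of the transcripts come from the same cells. The chymases kept a nearly fixed ratio, with 167–230 Mcpt4 counts per 100 Cma1 counts over the 12 mice, although KO BLM mice (184–205) lay just below KO PBS mice (206–215). There were 70.5–99.0 Tpsb2 counts and 81.9–141 Cpa3 counts per 100 Cma1 counts. For Cpa3, KO BLM mice (81.9–108) lay below KO PBS mice (113–141). In WT mice the Cpa3 ratio overlapped, at 110–130 after PBS and 90.2–121 after bleomycin. The ratios to Cma1 varied by 1.37-fold to 1.72-fold over mice, where the genes themselves varied by 5.96-fold to 6.67-fold. Over the 12 mice, the log2 CPM of Cma1, Mcpt4, Tpsb2 and Cpa3 were correlated with r from 0.965 to 0.997. All pairs share libraries and group differences, and each r is a description of these 12 libraries.

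Fcer1a did not keep a fixed ratio to Cpa3. There were 3.39, 3.17 and 3.73 Fcer1a counts per 100 Cpa3 counts in WT PBS and 7.82, 5.68 and 9.25 in WT BLM. In KO mice the ratio was 3.47, 1.39 and 2.55 after PBS and 6.39, 9.10 and 9.62 after bleomycin. In both genotypes all bleomycin-treated mice, mouse 145 included, were above all PBS mice, and mice 136 and 141 lay with the others of their treatment. With 3 mice against 3, an exact two-sided permutation test cannot go below p = 0.10, and no other test of this ratio was run. The other chain of the receptor, Ms4a2, held 9.26 ± 2.08 counts per 100 Cpa3 counts in WT PBS and 9.15 ± 2.09 in WT BLM, and 6.02 ± 1.08 and 8.05 ± 1.74 in KO PBS and KO BLM. Tpsab1 per 100 Tpsb2 counts was 1.03 ± 0.760 and 3.03 ± 1.80 in WT PBS and WT BLM, and 0.738 ± 0.213 and 2.55 ± 1.71 in KO PBS and KO BLM, with ranges that overlapped between treatments in both genotypes. Hdc per 100 Cpa3 counts was 12.8 ± 1.89 in WT PBS and 19.8 ± 8.12 in WT BLM. It was 9.48 ± 3.12 in KO PBS and 14.9 ± 7.11 in KO BLM. Ranges of this ratio overlapped between treatments as well.

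**Figure D3:**
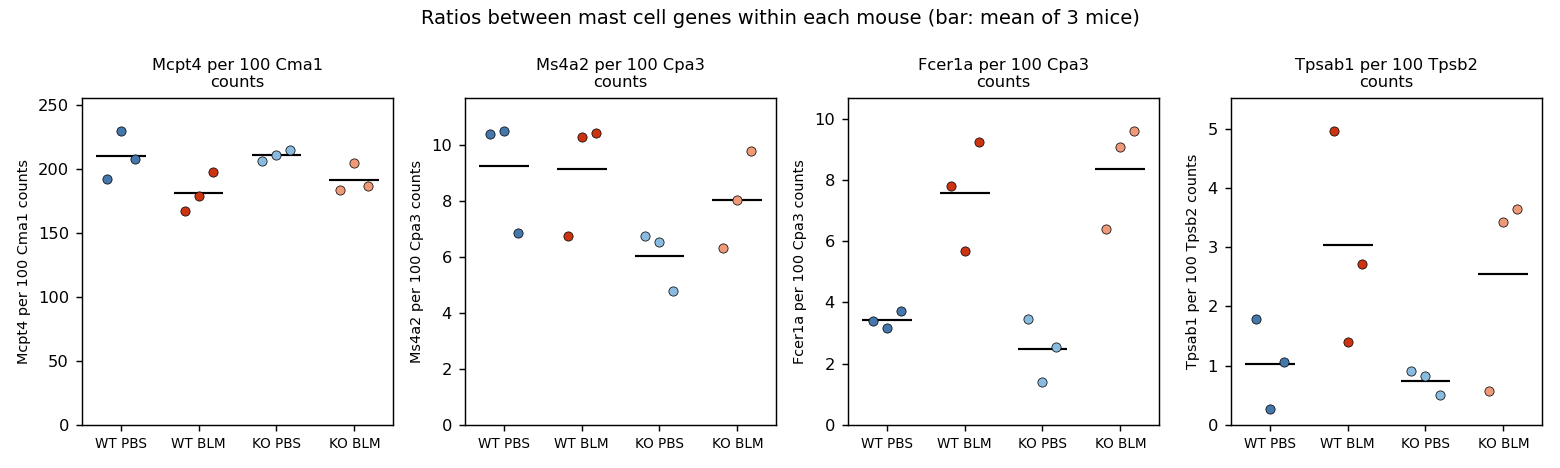
Counts of one mast cell gene per 100 counts of another (y axis, from 0) in each of 12 mice by group, with 1 point per mouse and a bar at the mean of 3 mice. Ms4a2 per Cpa3 overlaps between treatments in both genotypes and Mcpt4 per Cma1 in WT mice, with KO mice at 206–215 after PBS and 184–205 after bleomycin, while Fcer1a per Cpa3 is 5.68 or more in all 6 bleomycin-treated mice and 3.73 or less in all 6 PBS mice.

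Hair growth differed with the groups and was set beside the mast cell genes. The 4 mice with the highest hair growth list, all 3 WT PBS mice and KO PBS mouse 136, were at 60.7–72.0 CPM over the 5 proteases. WT BLM mouse 145, with a hair list of −0.0852, was at 68.0 CPM, and KO BLM mouse 141, with a hair list of 8.88, was at 168.3 CPM, so proteases and hair genes did not keep a fixed order. With the hair list as a covariate, 0 of the 9 genes passed in WT BLM against WT PBS (median log2 fold change 0.34), and 0.0382% of all genes did. Within WT mice, treatment and hair growth cannot be told apart, since all PBS mice were high and all bleomycin-treated mice low in hair genes. In KO mice none of the 9 was called between BLM and PBS without the covariate, where 0.306% of all genes passed. With it, Tpsab1, Fcer1a and Hdc were called, and 8.99% of all genes. Their log2 fold changes were 3.62, 2.59 and 1.67 (adjusted p = 0.0212, 0.0261 and 0.0283 by edgeR).

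**Figure D4:**
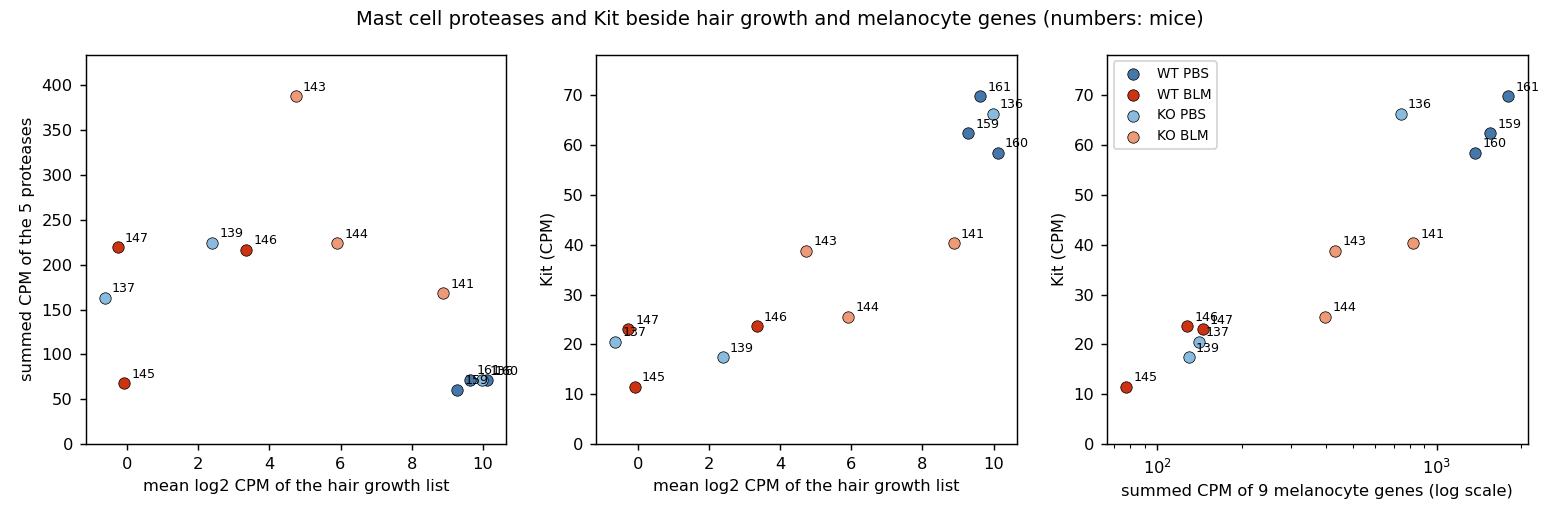
Summed CPM of the 5 mast cell proteases and CPM of Kit in each mouse (y axes) against the mean log2 CPM of the hair growth list, and Kit against the summed CPM of 9 melanocyte genes (log scale), with 1 numbered point per mouse, coloured by group. Kit is highest, at 58.4–69.8 CPM, in the 4 mice with the highest hair list, and the proteases of WT BLM mouse 145 (68.0 CPM) and KO BLM mouse 141 (168.3 CPM) stand apart from the other mice with similar hair lists.

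Other genes of mast cells moved partly with the 9. Of 27 further mast cell genes, 22 could be tested, and in WT BLM against WT PBS 8 rose and 1 fell (34% of all genes passed either way). The 4 with the smallest p were Srgn, the serglycin core that binds granule proteases (log2 fold change 1.64, adjusted p = 0.00405), Il1rl1, the IL-33 receptor (3.84, adjusted p = 0.00410), the lineage factor Mitf, which fell (−1.85, adjusted p = 0.00737), and Cd200r3 (2.71, adjusted p = 0.00787). Il1rl1 was at 1.66–3.41 CPM in WT PBS and 24.0–64.3 CPM in WT BLM, and Mitf, which is also the master factor of melanocytes, was at 68.3–72.0 and 16.3–24.9 CPM. Cd200r3 is found on basophils as well. Srgn was at 11.8–14.9 CPM in WT PBS. WT BLM mouse 145, with 68.0 CPM over the 5 proteases, was at 31.6 CPM for Srgn and 24.0 CPM for Il1rl1. Which cells the Srgn and Il1rl1 reads came from was not tested. The median log2 fold change of the 22 was 1.18. The 5 that could not be tested were Mcpt1, Mcpt2, Mcpt9, Cma2 and Rgs13, each with at most 16 counts in any mouse. Mcpt1 and Mcpt2 are proteases of mucosal mast cells. None of the 22 passed in the other 4 comparisons.

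Of 26 genes that act below or beside the IgE receptor chains, all tested, 20 rose in WT BLM against WT PBS and none fell. Of all genes tested, 19.8% rose and 14.1% fell there. The median log2 fold change of the 26 was 1.24. Those with the smallest p were the adaptor Lat2 (2.54), the kinase subunit Pik3r5 (2.51), the kinase Lyn (2.22) and the phosphatase Inpp5d (2.14), and Fcer1g, named here as the γ chain of the receptor, rose by 2.31 (adjusted p = 0.0129). Most of these genes are used by macrophages, T cells and B cells too, and 9 of 12 macrophage genes and 9 of 10 T cell genes also rose. The summed macrophage list was 636–1252 CPM in WT PBS and 2559–3727 CPM in WT BLM, and the part of these cells in the IgE receptor list was not tested. None of the 26 passed in any other comparison.

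Of 17 genes for the KIT ligand and the cytokines that act on or come from mast cells, 11 were tested. In WT BLM against WT PBS 7 of these rose, where 19.8% of all genes rose and 34% passed either way. Il33, an alarmin for which mast cells carry the receptor, rose from 7.27–9.60 CPM to 47.6–86.6 CPM (log2 fold change 2.81, adjusted p = 0.00608). Ccl2, Csf2rb and Tgfb1 rose by 2.84, 1.84 and 1.24 on the log2 scale. Kitl, the gene of stem cell factor, was at 50.3–64.0 CPM in WT PBS and 13.7–42.5 CPM in WT BLM, and its log2 fold change of −1.15 (SE 0.43) did not pass the test (adjusted p = 0.0594). In KO mice Kitl was at 29.8–32.5 CPM after PBS and 18.5–46.0 CPM after bleomycin (log2 fold change −0.15, SE 0.42). Among 8 tested genes for histamine breakdown, transport and receptors, 1 rose in WT skin, the H2 receptor gene Hrh2 (log2 fold change 2.25, adjusted p = 0.00560), so of the histamine genes the maker Hdc and 1 receptor passed. No gene of these 2 lists passed in the other 4 comparisons.

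Basophils share FcεRI and Hdc with mast cells, and the basophil genes Mcpt8 and Prss34 were close to 0. Mcpt8, the basophil protease, had 0–31 counts and Prss34 0–4 counts per library, and Mcpt8 was at 0 in 5 of the 6 PBS mice. Mcpt8 was highest in KO BLM mouse 143 (0.961 CPM), which was also highest in Fcer1a, and in WT BLM mouse 147 (0.689 CPM), the highest WT mouse in Fcer1a. Without Cpa3, which the list shares with mast cells, the 5 basophil genes summed to 0.357–0.710 and 0.979–3.58 CPM in WT PBS and WT BLM, and to 0.432–2.03 and 1.59–4.09 CPM in KO PBS and KO BLM. Fcer1a itself was at 1.14–3.87 CPM in WT BLM and 2.48–7.57 CPM in KO BLM. Cd200r3, which is in this list, rose in WT BLM against WT PBS (log2 fold change 2.71, adjusted p = 0.00787 by edgeR). The part of basophils in Fcer1a was not tested. Of 9 eosinophil genes 5 were tested, with 1 called in WT and 1 in KO skin after bleomycin, and of 11 neutrophil genes 6 were tested, with 4 higher and 1 lower in WT skin. Of all genes, 34% were called in WT skin after bleomycin, 19.8% higher and 14.1% lower, and 0.306% in KO skin. Genes of the skin itself were counted in every mouse, and the makeup of the samples differed between groups. Of 12 skeletal muscle genes, 11 rose in WT BLM against WT PBS, and their summed level was 6309–7080 CPM in WT PBS and 21590–43651 CPM in WT BLM, with 8160–33857 CPM in KO PBS and 12761–24027 CPM in KO BLM. Of 10 fibroblast genes, 4 rose and 1 fell in WT skin (4615–5858 CPM summed in WT PBS and 7651–22354 CPM in WT BLM). The part of these shifts in the mast cell gene levels was not tested.

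The genes whose pattern was most like that of the members other than Kit were found by Pearson's r of log2 CPM over the 12 mice with the mean of their standardised values, among the 15210 genes whose mean reached 1 CPM. The 10 closest were Twist2 (r = 0.976), Olfml3 (0.961), C1qtnf2 (0.958), Galk2 (0.958), Sec22b (0.956), Vkorc1 (0.954), Il2ra (0.953), Foxp3 (0.950), Ctsk (0.949) and Ltb (0.948). Twist2 is a transcription factor of dermal mesenchyme, Foxp3 and Il2ra mark regulatory T cells, and Ctsk encodes cathepsin K. Of the further mast cell genes, 20 could be ranked, 16 with r above 0 and 4 below, with a median of 0.776. The highest was Tpsg1, a tryptase (rank 17), Mrgprb2, a receptor of connective tissue mast cells, was at r = 0.239 (rank 6022), and Mitf was the lowest (r = −0.764). After the group means were taken out, the closest genes were Pdpn (r = 0.981) and Mmp2 (0.977), and C1qtnf2, Galk2 and Sec22b were among the 10 closest both ways. All points share libraries, groups and the hair growth differences, and the values describe these mice.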

How the data were processed

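Skin RNA was made into stranded mRNA libraries (TruSeq) and sequenced as read pairs (NextSeq). The authors deposited raw counts per gene for 12 mice, on build GRCm38.p6 per the labels, whose processing notes also name MultiQC 1.7. The aligner, the counter and its strand setting are not given in the sources used here. The counts were tested as deposited.

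Genes were kept by edgeR's filterByExpr (minimum count 10), scaled by trimmed mean of M values (TMM) factors and fitted in edgeR 4.0.16 (R 4.3.3) with glmQLFit on 4 group means, all 12 mice in one fit. Adjusted p-values are Benjamini-Hochberg over the 18311 genes tested, with a threshold of 0.05, and all p-values are two-sided. CPM are counts relative to the TMM-scaled library total on the usual CPM scale, and log2 CPM add a prior count of 2. The common biological coefficient of variation was 34.9%. The fit was tested on simulated data. Replicates of one group differed by far more than sampling noise. Alternatives were DESeq2 1.42.0, other scalings and filters, the hair growth list as a covariate, the compared groups alone and each mouse left out.

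The 9 genes and all lists were chosen with earlier results of these data known. All 9 are named in every comparison, up to 4 genes of another list by smallest p, and the 10 genes most like the members by Pearson's r. Gene positions are from GENCODE (GRCm38) and promoters from RefSeq (GRCm38.p6). p-values measure the spread between mice of one experiment.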

Additional observations from a re-analysis of the deposited data

How the results depend on the processing

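Of 929 values of the 9 genes under alternatives, 831 kept their direction and their side of the threshold, 32 lost the threshold, 37 gained it and 29 changed sign. In WT BLM against WT PBS, 5 genes passed. All scalings also gave 5 (34.3% to 34.7% of all genes), as did the fit without a low-count filter (15.5%). DESeq2 (34.7%) and the compared groups alone (44.6%) gave 7. The filter at a mean of 1 CPM gave 4 (36.4%), with Tpsab1 not tested. The hair list as a covariate gave 0 (0.0382% of all genes), and leaving out mice 136 and 141 together gave 8 (49%). Single mice left out gave 0 to 8 (13.9% to 45.7%). In KO BLM against KO PBS, with 0 called, DESeq2 gave 2 (5.95% of all genes) and the hair list 3 (8.99%). Both mice left out gave 2 (22.3%), and single mice left out 0 to 2 (0% to 14%). For KO PBS against WT PBS, with 0 called, both mice left out gave 6 (Hdc added to the 5 named), with 40.9% of all genes. Single mice left out gave 0 to 5 (0.032% to 36.7%). In KO BLM against WT BLM each alternative gave 0 (0.0267% to 6.89% of all genes). For the difference of responses, with 0 called, both mice left out gave 1 (38.6% of all genes) and single mice 0 to 1 (0% to 39.9%).

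The sign of Kit in KO BLM against KO PBS was not settled, at −0.0086 with RLE scaling, −0.012 without a filter, −0.0081 in DESeq2 and −0.15 with the hair list, and −0.32 to 0.88 with single mice left out. With the hair list, KO PBS against WT PBS changed sign for Tpsab1 (−1.26), Ms4a2 (−0.079) and Hdc (−0.45), and the difference of responses for Cma1 (0.70), Mcpt4 (0.87), Tpsb2 (0.83), Cpa3 (0.50), Ms4a2 (0.77) and Hdc (1.62). With single mice left out, KO BLM against WT BLM ran from −0.19 to 0.71 for Ms4a2 and from −0.032 to 0.65 for Hdc. The difference of responses then ran from −0.44 to 0.69 for Fcer1a, −0.37 to 0.79 for Tpsab1 and −0.81 to 0.091 for Ms4a2. The cause was not tested.

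Over all genes, DESeq2 called 1202 against 56 of edgeR in KO BLM against KO PBS, 746 against 12 in KO PBS against WT PBS, 585 against 17 in KO BLM against WT BLM and 3253 against 0 for the difference. With single mice left out, edgeR called 2615 to 8565 in the WT comparison (6222 with all mice), 0 to 2632, 6 to 6870, 5 to 1292 and 0 to 7470 in the others, in that order. Without a filter the KO bleomycin comparison gave 176 and the difference 20, and with the hair list the WT comparison gave 7 and the KO bleomycin comparison 1646. The compared groups alone gave 0, 2 and 6 in the comparisons that involve KO mice, and both mice left out gave 4164, 7648, 815 and 7218 in those and the difference. No paired analysis was possible because every mouse has its own number. With 1–67 counts per library, Tpsab1 was the member with the fewest counts, and the cause of its low level was not tested. Counts per gene do not show whether its transcripts encode a working tryptase.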
